A study of Mus musculus with 9 samples.

Results

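The ribosome of the mouse cytosol is built from ribosomal RNA and a fixed set of ribosomal proteins, each made from its own gene. The genes described here were the rows of the deposited count table whose symbol follows the Rpl or Rps naming of those proteins, with pseudogenes, like genes and ribosomal kinases left out. They were 76 of 13593 genes, of which 46 encode proteins of the large subunit and 30 encode proteins of the small subunit. RNA came from bone marrow-derived macrophages, grown for 7 days from the marrow of wild-type C57BL/6 mice aged 6 weeks in medium with 15% supernatant of L929 cells, a fibroblast line that releases macrophage growth factor. Every culture, controls included, had that supernatant. The 3 groups of 3 libraries each received 1 protein at 4 nM for 4 h: BSA (bovine serum albumin, the protein control), the chemokine CX3CL1 or the chemokine CCL26. According to the series title CX3CL1 and CCL26 both bind CX3CR1, and the comparisons ask how macrophages answer each of them. Whether the 3 replicates of a group were separate animals or cultures is not stated, so a p-value here covers the spread among libraries and possibly no more than technical spread.

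Ribosomal proteins are needed in nearly equal numbers, because a ribosome carries a single copy of almost every one of them. Their messenger RNAs are short, stable and abundant, and in mammals they share a 5′ terminal oligopyrimidine (TOP) start: a C at the cap followed by an unbroken run of C and T. The protein LARP1 and signalling through the kinase mTOR act on that run to set how many of these messages are translated or held in reserve. Macrophages use this control when growth factors or activating signals change, and ribosomal protein messages are then regulated as a block.

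The start-site sequences given here were picked because they hold long runs of C and T, among members that the CCL26 comparison called and members that it did not call; most member promoters of the table have no run of at least 8 such letters at the listed start. RefSeq start sites on GRCm38.p6 were matched for 56 of the 76 genes, with 66 promoters in all. Each window is 30 bases, from 15 before to 15 after the listed start, read 5′ to 3′ on the strand of the gene, with its longest run of C or T in capitals. The first 4 genes passed the test for CCL26 against BSA described further on, and the last 2 did not.
Rps6, chr4:86857353-86857382, minus strand: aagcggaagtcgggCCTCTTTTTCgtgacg
Rpl7a, chr2:26910792-26910821, plus strand: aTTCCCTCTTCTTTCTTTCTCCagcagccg
Rpl35, chr2:39005117-39005146, minus strand: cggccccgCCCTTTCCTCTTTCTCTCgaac
Rps27, chr3:90213634-90213663, minus strand: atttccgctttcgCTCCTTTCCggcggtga
Rps18, chr17:33955651-33955680, minus strand: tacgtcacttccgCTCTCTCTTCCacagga
Rpl18, chr7:45718056-45718085, plus strand: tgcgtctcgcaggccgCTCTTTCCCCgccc

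A run of at least 8 C or T letters on the gene's own strand lay within that window in 26 of 66 member promoters (39.4%), against 12% of all 32851 promoters of the table. It was found at 45.0% of large subunit and 30.8% of small subunit promoters. Counted by gene, 18 of the 40 matched members later called lower and 7 of the 16 not called had such a run at a listed start, so the run was present on both sides of the call. The letters CGGAAG, the core that ETS factors recognise, were searched on both strands of the 300 bases from 250 before to 50 after the start. They lay in 41 of the 66 promoters (62.1%), against 16.9% of all promoters and 21.1% of promoters of protein coding genes. The letters AAGATGGC, a YY1-type core that can share its AAG with an ETS-type core, lay in 10.6%, against 2.75% and 3.05% in the same order. TATAAA, the TATA box, lay in 9.09%, against 13.6% and 12.6%. A match to letters is a description and not a site of binding.

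The libraries held 16923982 to 23198324 counts, and 8 of the 9 were alike. CX3CL1 replicate 1 stood apart from them. It left 1193 genes of the table without a count, against 80 to 170 elsewhere, and its counts differed from those of its own replicates by 283.5 and 335.9 in chi-square per degree of freedom, against 3.907 to 8.65 for the other pairs within groups. Among those other pairs the ones with CCL26 replicate 3 were highest, at 8.357 and 8.65, and the rest reached at most 5.155. Because of CX3CL1 replicate 1, the comparisons of treatments are given with all 9 libraries and with the 8 without it. The correlations and the medians of other gene lists are given for the 8. The macrophage markers Adgre1 (3108 ± 26.6 CPM in BSA, SD, n = 3), Csf1r (1286 ± 9.36 CPM) and Lyz2 (23950 ± 281 CPM) were abundant, and none of the 6 T and NK cell or 5 erythroid marker genes looked for was in the table. The table was deposited as filtered, so a gene absent from it may still have had some counts. CPM are counts scaled to a common library total, here with TMM factors, which align the bulk of genes between libraries. CPM of members and summed CPM of marker lists used the factors of the 9 libraries. The means of single marker genes and of Myc used those of the 8 libraries. For scale, Rpl7 in BSA replicate 1 was at 789.7 CPM with the first and 805.5 CPM with the second.

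The share of all counts in the filtered table taken by ribosomal protein genes was close to even across 8 libraries and far higher in CX3CL1 replicate 1. Large subunit genes took 2.082%, 2.128% and 2.166% of counts in BSA replicates 1 to 3. The CX3CL1 libraries gave 5.655%, 2.107% and 1.991%, and the CCL26 libraries gave 1.96%, 1.927% and 2.021%, in the same order. The CCL26 libraries all lay below the BSA libraries, and CX3CL1 replicate 2 lay within the BSA range. Small subunit genes followed the same order. Their shares were 1.547%, 1.582% and 1.604% in BSA, 4.619%, 1.548% and 1.475% in CX3CL1, and 1.444%, 1.429% and 1.489% in CCL26. Both subunits together held 3.703 ± 0.0707% (SD, n = 3) of counts in BSA and 3.423 ± 0.0788% (SD, n = 3) in CCL26. They held 10.27% in CX3CL1 replicate 1 and 3.561 ± 0.134% (SD, n = 2) in its replicates 2 and 3. The ratio of large to small subunit counts ran from 1.345 to 1.361 in the 8 libraries, and was 1.224 in CX3CL1 replicate 1. These are shares of messenger RNA, so fewer cells that express the genes and less of their RNA per cell cannot be told apart.

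**Figure D1:**
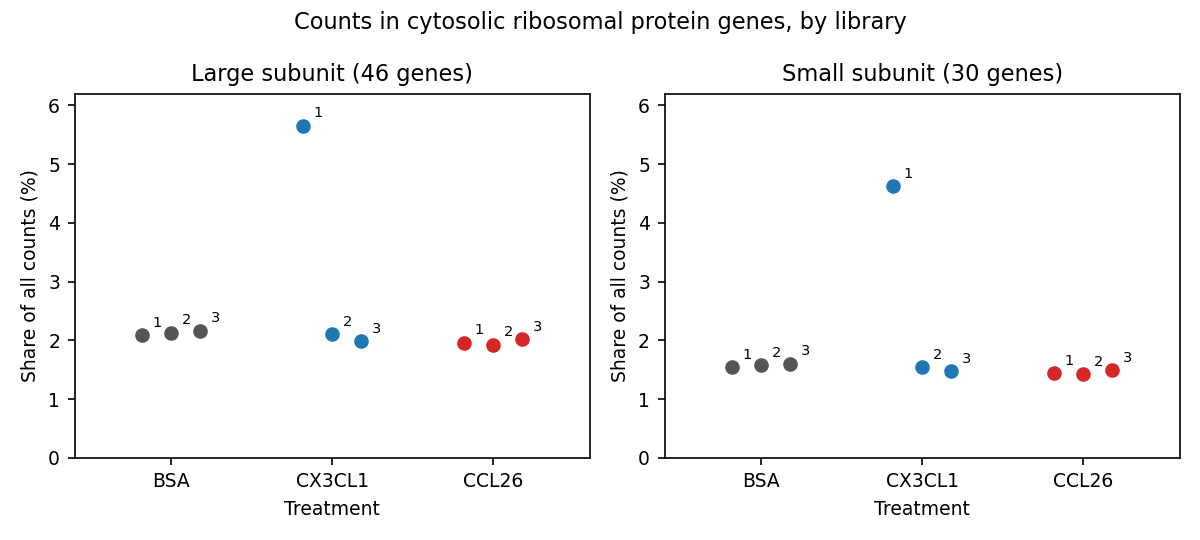
Share of all counts (%) in the 46 large subunit genes (left) and the 30 small subunit genes (right), with 1 point per library, numbered by replicate, for the 3 treatments. CX3CL1 replicate 1 sits at 5.655% and 4.619%, and the 3 CCL26 points (1.927% to 2.021%, and 1.429% to 1.489%) lie below the 3 BSA points.

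Levels differed widely among the members, although a ribosome carries a single copy of almost every protein they encode. Compared per kilobase of annotated exon in BSA, the highest large subunit genes were Rplp1 (1129 ± 17.4 CPM per kb, SD, n = 3), Rplp0 (1027 ± 23.2 CPM per kb) and Rpl4 (612 ± 1.43 CPM per kb). Rplp0 and Rplp1 encode proteins of the stalk that receives elongation factors, and Rpl4 a protein that lines the exit tunnel. The highest small subunit genes were Rps2 (764 ± 36.2 CPM per kb), Rps15 (703 ± 13.4 CPM per kb) and Rps4x (562 ± 3.86 CPM per kb). The lowest large subunit genes were Rpl24 (0.329 ± 0.29 CPM per kb), Rpl13a (6.58 ± 0.994 CPM per kb) and Rpl23a (33.1 ± 4.97 CPM per kb). The lowest small subunit genes were Rps10 (1.09 ± 0.342 CPM per kb), Rps15a (56.6 ± 3.45 CPM per kb) and Rps13 (72.2 ± 4.81 CPM per kb). Reads shared with near-identical copies may be lost or split in counting, and 59 members have named pseudogenes, 291 in all. The low Rpl24, Rpl13a and Rps10 have 0, 1 and 4 named pseudogenes, and the abundant Rps2, Rpsa and Rps12 have 11, 9 and 23. Only pseudogenes named after their parent gene were counted, so a 0 does not mean that a gene has no copies. Loss of reads to copies was not tested. Exon lengths are the union over all annotated transcripts, so a single long isoform lowers a gene's value per kilobase. Levels between members are uncertain on both counts, and the comparisons of treatments below are within a gene.

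CX3CL1 replicate 1 carried nearly every member at a level outside the range of the other 8 libraries. In it 75 of the 76 members, 45 large and 30 small, lay above all 8 others, as did 35.8% of all genes of the table. The median member stood at a log2 excess of 1.886 over the mean of the other 8 (range 0.417 to 2.465 among the 75 members tested with all 9 libraries), where the median of all tested genes stood at -0.117. The excess was uneven: Rplp2, of the elongation stalk, and Rpl36 were each 5.53-fold over the mean of the others, whereas Rpl15 was 1.69-fold and Rps10 was 1.41-fold. Rpl24, which was near 0 throughout, had no count in that library.

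Over all genes, the ratio of CX3CL1 replicate 1 to its own replicates ran with gene length. Across 12905 genes the log2 ratio of that library to its own replicates fell with exon length (Spearman rho -0.4915, a description of these 3 libraries across genes that share them). With the genes split by length into 5 equal bins, from shortest to longest, the median ratio was 0.771, 0.295, -0.09, -0.436 and -0.879 on the log2 scale. Members had a median exon length of 1805.5 bp against 4226 bp for all tested genes, and 46 of the 75 with a place in this ranking fell in the shortest bin, 20 in the next, 7 and 2 in the following ones and 0 in the longest. In the plot of that ratio against length the members lie along the upper edge of the genes of their length. Among the 76 members the log2 excess over the mean of the other 8 libraries had a Spearman rho of -0.1463 with exon length. The part of length in the members' excess was not tested. With a trend in exon length removed, the medians of CX3CL1 over BSA with all 9 libraries were 0.426 (large) and 0.416 (small), against 0.834 and 0.917 without that step.

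**Figure D2:**
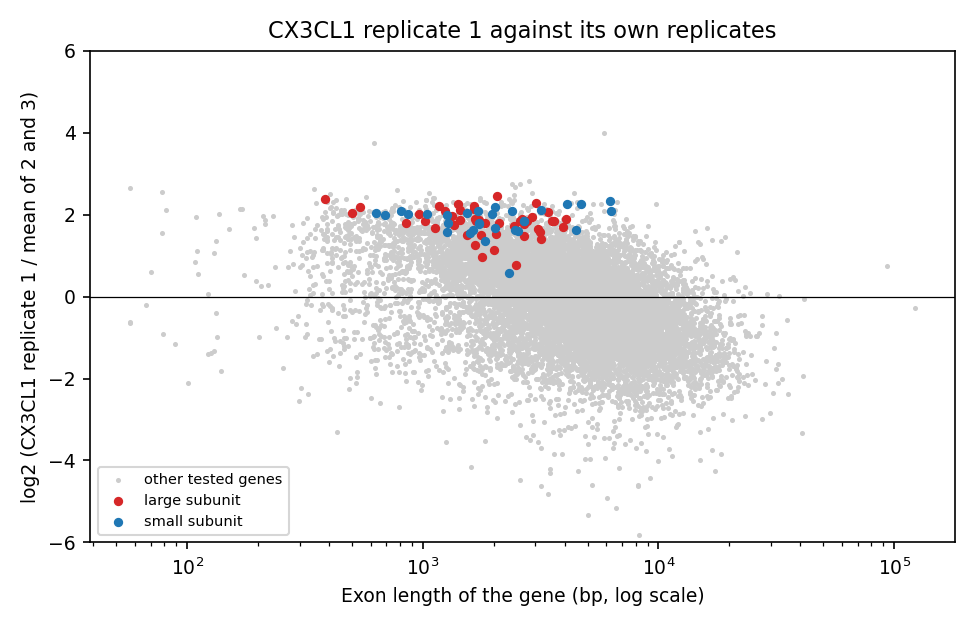
Log2 ratio of CX3CL1 replicate 1 to the mean of CX3CL1 replicates 2 and 3 (y axis) against exon length in bp (x axis, log scale), with 1 point per tested gene; large subunit genes are red, small subunit genes blue and all others grey. The grey cloud falls with length (rho -0.4915) and the members lie along its upper edge; 3 genes lie outside the y range and 10 have no length.

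Ribosomal protein messages of both subunits were lower with CCL26 than with BSA, by a small amount, when CX3CL1 replicate 1 was left out. Against BSA, 32 of 46 large subunit genes were lower at an adjusted p under 0.05 (edgeR's quasi-likelihood test, Benjamini-Hochberg over 13245 genes), none was higher and 14 did not pass. Of 30 small subunit genes 20 were lower, none was higher and 10 did not pass. The background was 9.26% of all tested genes called lower and 9.74% called higher. The median log2 fold change was -0.184 for the large subunit (quartiles -0.245 and -0.136), which is a change of -12%, and -0.177 for the small subunit (-11.5%), against 0.008 for all tested genes. All 76 members had a negative log2 fold change, against 48.6% of all tested genes, with TMM, DESeq2 or upper quartile scaling; with total counts alone, or with a trend in exon length removed, 44 of the 46 large subunit genes and all 30 small ones were negative. The exceptions were Rpl27 (0.01) and Rpl36 (0.003) with total counts, and Rplp1 (0.059) and Rpl36 (0.075) with the length trend removed. Total counts alone also moved the split of all genes called, to 800 lower and 1798 higher from 1227 and 1290, and left 24 large and 13 small subunit genes lower.

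The members with the smallest p in the large subunit were Rpl7, Rpl26, Rpl17, Rpl6 and Rpl10. Rpl7 (chromosome 1, 16101295 to 16104662, GENCODE M21 on GRCm38), an RNA-binding protein of the subunit surface, was at 789.7, 800.1 and 781.1 CPM in BSA and at 671.6, 691.9 and 624.0 CPM in CCL26. The groups did not overlap, and its log2 fold change was -0.251 (SE 0.0363, edgeR adjusted p = 1.35e-05). Rpl26 (chromosome 11, 68901583 to 68906989), which also binds the p53 message, was at 554.1, 555.7 and 561.8 CPM in BSA and 470.2, 488.9 and 439.4 CPM in CCL26. Rpl17 (chromosome 18, 74998558 to 75003381), at the exit of the tunnel, was at 619.8, 633.9 and 635.9 CPM in BSA and 540.2, 548.4 and 527.9 CPM in CCL26. Both sets of 3 lay wholly below the BSA values, at log2 fold changes of -0.254 and -0.222. Rpl6 (chromosome 5, 121204481 to 121209241) was the tightest of the 5, at 889.0, 880.5 and 884.7 CPM in BSA and 780.3, 775.0 and 775.0 CPM in CCL26 (log2 fold change -0.185, SE 0.0304). Rpl10 (chromosome X, 74270812 to 74273135), which joins the large subunit late and is needed before the subunits pair, was at 1041, 1015 and 1008 CPM in BSA and 874.0, 878.7 and 920.5 CPM in CCL26. Its groups were also apart (log2 fold change -0.194).

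In the small subunit the same rule named Rpsa, Rps12, Rps6, Rps7 and Rps25. Rpsa (chromosome 9, 120127689 to 120132369), known also as the laminin receptor, was at 1388, 1404 and 1408 CPM in BSA and 1213, 1230 and 1159 CPM in CCL26. Its log2 fold change was -0.218 (SE 0.0292, edgeR adjusted p = 4.64e-06). Rps12 (chromosome 10, 23785183 to 23787275) was at 511.7, 529.4 and 542.8 CPM in BSA and 445.9, 436.5 and 423.3 CPM in CCL26, a log2 fold change of -0.275 (SE 0.0374, edgeR adjusted p = 5.87e-06). All CCL26 values of both genes lay below all BSA values. Rps6 (chromosome 4, 86854660 to 86857412), the protein that S6 kinases phosphorylate downstream of mTOR, was at 644.3, 697.9 and 679.1 CPM in BSA and 578.9, 571.1 and 525.3 CPM in CCL26 (log2 fold change -0.268). Rps7 (chromosome 12, 28630854 to 28635953) was at 645.4, 641.4 and 631.3 CPM in BSA and 552.0, 563.9 and 542.4 CPM in CCL26 (-0.207). Rps25 (chromosome 9, 44407139 to 44410427), which some viral messages need to recruit the ribosome, was at 591.8, 624.9 and 629.4 CPM in BSA and 541.1, 530.7 and 476.7 CPM in CCL26 (-0.25). None of the 10 genes named here overlapped between groups.

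Counted over all members, 29 large and 18 small subunit genes lay lower in every CCL26 library than in any BSA library, against 16% of all tested genes, and none lay higher in every one. The largest fold changes among those called were of less abundant genes. Rpl13a, whose protein also serves in a complex that silences inflammatory messages, was at 11.49, 15.20 and 15.06 CPM in BSA and 9.141, 10.08 and 9.609 CPM in CCL26 (-0.53 on the log2 scale, SE 0.147). Rpl30 was at 112.2, 148.5 and 135.3 CPM in BSA and 106.8, 99.25 and 90.60 CPM in CCL26 (-0.412, SE 0.0916), and Rpl35 at 47.51, 49.62 and 48.47 CPM in BSA and 38.78, 42.81 and 28.28 CPM in CCL26 (-0.399, SE 0.109). These 3 were chosen after their values were seen, and their SEs were wider than those of the genes with the smallest p. Rpl13a and Rpl30 spread mainly in BSA, and Rpl35 mainly in CCL26, where replicate 3 was lowest.

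At the other end, Rpl27, Rpl36 and Rps14 had the log2 fold changes closest to 0. Rpl27 was at 231.7, 251.8 and 253.9 CPM in BSA and 226.4, 204.6 and 282.9 CPM in CCL26 (log2 fold change -0.045, SE 0.0735, edgeR adjusted p = 0.754). Rpl36 was at 120.0, 130.4 and 134.1 CPM in BSA and 116.4, 103.8 and 150.5 CPM in CCL26 (-0.052, SE 0.0919). Both had their highest and their lowest value in CCL26. Without CCL26 replicate 3 both were called lower (Rpl27 -0.186, edgeR adjusted p = 0.00323; Rpl36 -0.215, edgeR adjusted p = 0.0185), and without CCL26 replicate 2 or with total counts their sign turned. Rps14, whose loss of a copy marks a myelodysplastic syndrome, was at 709.2, 675.4 and 703.9 CPM in BSA and 632.8, 678.6 and 694.5 CPM in CCL26 (-0.055, SE 0.0378, edgeR adjusted p = 0.357). Its groups overlapped. Abundant members that were not called included Rplp1 (-0.057, SE 0.0463), Rpl8 (-0.057, SE 0.0573) and Rps2, at the entry of the messenger channel (-0.074, SE 0.0502), each with its highest CCL26 value in replicate 3. Rpl24 could be tested only without CX3CL1 replicate 1, and at 0.339 ± 0.299 CPM in BSA (SD, n = 3) its log2 fold change of -0.773 had an SE of 1.1. Rps10, at 2.53 ± 0.79 CPM in BSA, was also too low to place (log2 fold change -0.15, SE 0.352).

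**Figure D3:**
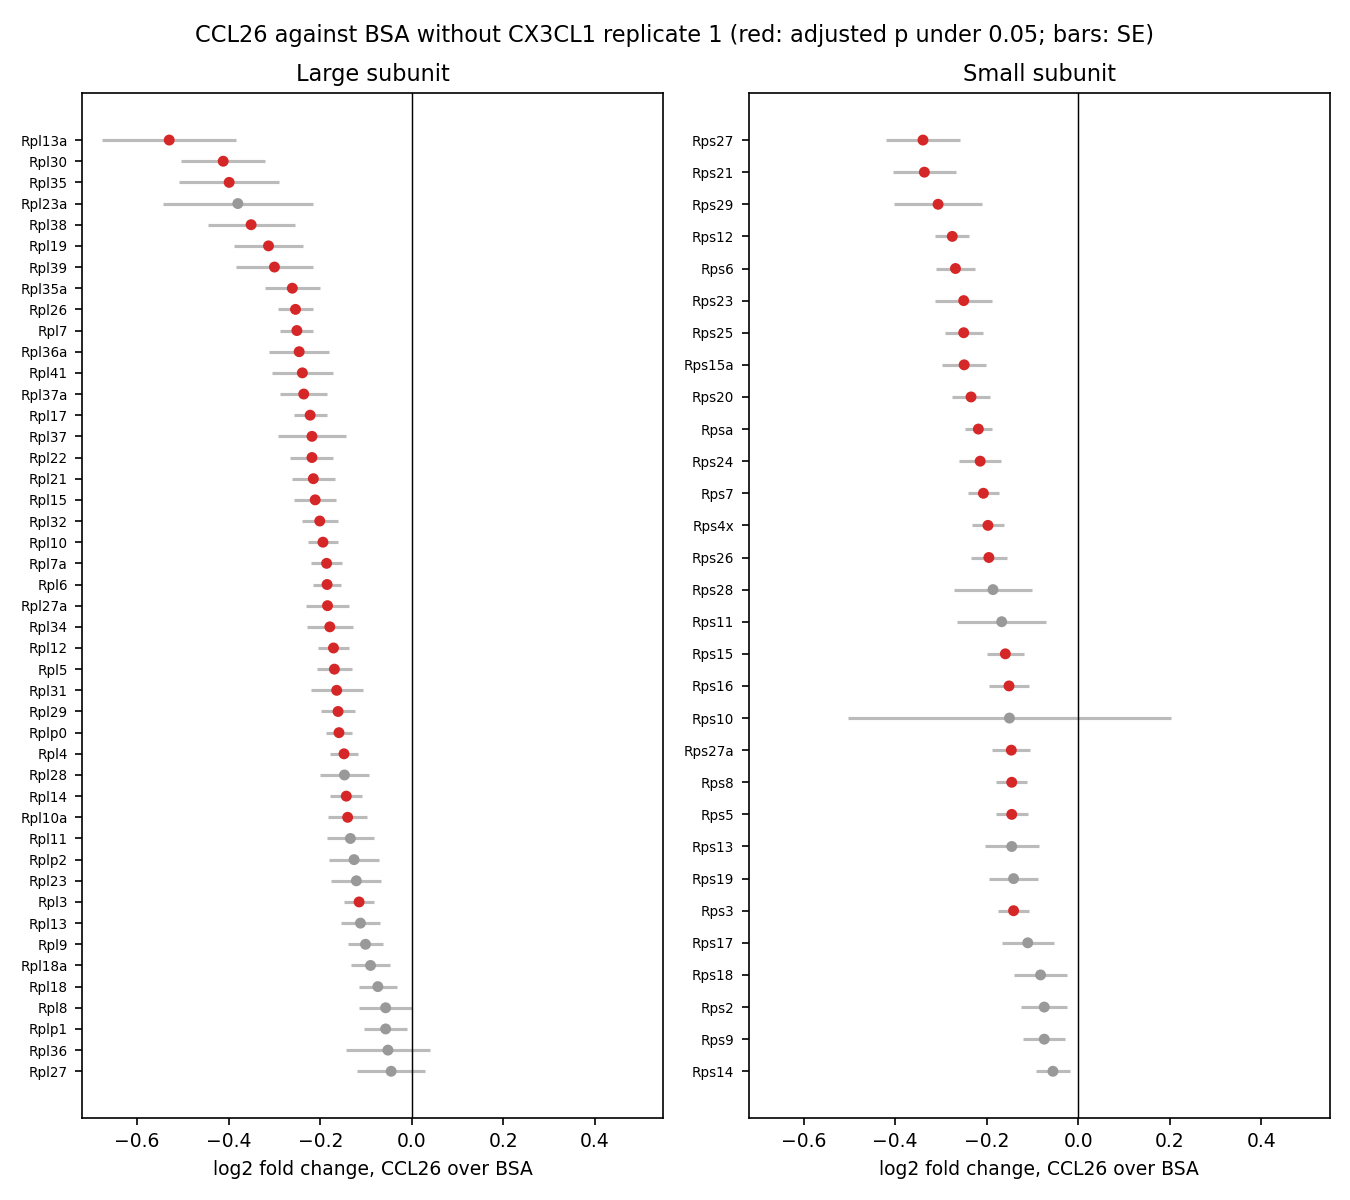
Log2 fold change of CCL26 over BSA (x axis) for each large subunit gene (left) and small subunit gene (right) in the 8 libraries, with bars of 1 SE on each side; red points have an adjusted p under 0.05. All points lie left of 0, from -0.53 (Rpl13a) to -0.045 (Rpl27); Rpl24 (-0.773) is not drawn.

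With all 9 libraries the same comparison called no member. The medians were -0.188 (large) and -0.18 (small), all 75 tested members were negative, and 47 of the 75 did not overlap between groups, against a background of 16.5%. Yet edgeR called 0 of 75, DESeq2 and limma-voom called 0, and the background fell to 0.0465% of 12915 genes called lower and 0.387% called higher. No member had an unadjusted p under 0.05, against 299 lower and 493 higher of all tested genes. CX3CL1 replicate 1 is in neither group compared, and enters through the estimate of the spread that the groups share: the SE of Rpl7 was 0.357 in this fit and 0.0363 in that of the 8 libraries. Limma-voom with quality weights, which gives a library that stands apart less weight, called 29 large and 16 small subunit genes lower with all 9 libraries. A fit of the 6 BSA and CCL26 libraries alone called 33 and 21. The shares of all genes called with quality weights and in the fit of 6 libraries are not given.

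Leaving out 1 further library moved the counts of the 8-library comparison but left every median negative. The lowest counts were 22 large and 17 small subunit genes lower (without BSA replicate 2 and without BSA replicate 3), and the highest were 44 and 27 (without CCL26 replicate 3). The medians ran from -0.2 to -0.172 for the large subunit. In the 8 libraries the fold change of CCL26 over BSA also ran with exon length over all genes, with medians from -0.057 in the shortest of the 5 bins to 0.053 in the longest. With that trend removed 27 large and 18 small subunit genes were called lower. No share of all genes called is given for that fit or for the fits that left out a further library.

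CX3CL1 against BSA depended on its replicate 1 for its sign. With replicates 2 and 3 the medians were -0.084 for the large and -0.09 for the small subunit, and 71 of 76 members were negative. EdgeR called 0 members in either direction, against a background of 0.31% lower and 0.0227% higher. At an unadjusted p under 0.05 there were 26, all lower, against 547 lower and 444 higher of the 13245 tested genes. DESeq2 called 3 large and 3 small subunit genes lower, and limma-voom none. The counts lower were 7 and 4 with library quality weights, 9 and 4 in a fit of the 2 groups alone, and 9 and 5 without CCL26 replicate 3. No share of all genes called is given for these fits or for DESeq2, so their counts cannot be set against a background. The 2 CX3CL1 libraries lay below all BSA libraries for 20 large and 13 small subunit genes, against 13.2% of all tested genes.

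The members nearest to a call were Rpl26 and Rps6. Rpl26 was at 504.4 and 491.8 CPM in CX3CL1 replicates 2 and 3, below the 554.1 to 561.8 CPM of BSA, a difference of -0.161 on the log2 scale (SE 0.0432, adjusted p = 0.148 by edgeR). Rps6 was at 623.2 and 572.5 CPM, below the 644.3 to 697.9 CPM of BSA, a difference of -0.173 (SE 0.0469, adjusted p = 0.152 by edgeR). Next in the large subunit came Rpl32 (-0.158), Rpl17 (-0.139), Rplp0 (-0.101) and Rpl6 (-0.106), and in the small subunit Rps3 (-0.135), which lies at the entry of the messenger channel, Rps7 (-0.126), Rpsa (-0.102) and Rps12 (-0.109). None of these passed the adjusted threshold in the edgeR fit of the 3 groups, and all had CX3CL1 values below BSA. All but Rps12 passed with the 2 groups alone and with quality weights, and Rpl26, Rpl32, Rpl17, Rps6, Rps3 and Rps7 passed with DESeq2. Rpl36, Rps28, Rps29, Rpl38 and Rpl37a had positive values (0.082, 0.081, 0.059, 0.019 and 0.013).

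With replicate 1 included the medians were 0.834 and 0.917, and 74 of 75 members were positive. None was called by edgeR, DESeq2 or limma-voom, and no gene of the table was called (a background of 0%). At an unadjusted p under 0.05 there was 1 member, which was higher, against 117 lower and 288 higher of all tested genes. No member of the 75 separated CX3CL1 from BSA in either direction, against 6.93% of all tested genes lower and 4.77% higher, and the replicates of CX3CL1 lay on both sides of BSA values or among them. For Rpsa the CX3CL1 values were 5623, 1305 and 1303 CPM, and for Rps12 they were 2225, 499.4 and 479.3 CPM.

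Set against CX3CL1 directly, CCL26 gave lower values for a small number of members. In the 8 libraries 5 large and 4 small subunit genes were lower and none was higher (edgeR), against backgrounds of 4.64% and 5.47% of all tested genes. Of the 76 members 69 were negative, with medians of -0.092 and -0.099. CCL26 lay wholly below CX3CL1 for 20 large and 10 small subunit genes, against 18.1% of all tested genes, and wholly above it for none, against 18.7%. The 5 large subunit genes were Rpl37a (-0.249, SE 0.0564), Rpl21 (-0.21, SE 0.0521), Rpl38 (-0.369, SE 0.105), Rpl19 (-0.294, SE 0.0842) and Rpl7 (-0.141, SE 0.0404). The 4 small subunit genes were Rps12 (-0.166, SE 0.0417), Rpsa (-0.117, SE 0.0326), Rps4x (-0.136, SE 0.0393) and Rps29 (-0.365, SE 0.106).

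The CX3CL1 arm of this comparison has 2 libraries, which lay apart for some of these genes. Rpl37a was at 323.6 and 276.5 CPM in CX3CL1 replicates 2 and 3, and at 243.4, 251.5 and 260.5 CPM in CCL26. Rpl38, a protein known for its part in the translation of Hox messages, was at 151.0 and 105.8 CPM in CX3CL1 and at 97.35, 96.13 and 103.2 CPM in CCL26. Rps29 was at 175.9 and 125.3 CPM in CX3CL1 and at 124.9, 111.5 and 112.3 CPM in CCL26. In each of these 3 genes CX3CL1 replicate 2 was the highest of the 8 libraries. CX3CL1 replicate 3 lay close to both CCL26 and BSA replicate 1 for Rpl38 and Rps29, and between CCL26 and BSA for Rpl37a. BSA replicates 1 to 3 were at 105.9, 135 and 138.3 CPM for Rpl38 and at 120.1, 146.8 and 165.7 CPM for Rps29. Rpl38, Rpl19 and Rps29 were not called with DESeq2 (adjusted p = 0.196, 0.172 and 0.231), with edgeR's robust dispersion (adjusted p = 0.263, 0.142 and 0.333) or with the replicate number as a block in edgeR (adjusted p = 0.0842, 0.0526 and 0.0897). Rpl7, Rpsa and Rps4x were not called with total counts (edgeR adjusted p = 0.0685, 0.0756 and 0.0723). Nor were they called in a fit of the 2 groups alone (edgeR adjusted p = 0.0818, 0.0818 and 0.0854). Rps4x also lost its call with the length trend removed (edgeR adjusted p = 0.093). Rps4x was at 902.6 and 853.8 CPM in CX3CL1 and at 824.6, 812.5 and 754.7 CPM in CCL26, with a smaller gap between the CX3CL1 libraries. Without CX3CL1 replicate 2 no member was called, and without CX3CL1 replicate 3 the counts were 8 and 6; in both cases the arm has 1 library, which is assumed to vary like the other groups. Without replicate 2 the log2 fold changes of Rpsa (-0.116), Rpl7 (-0.123) and Rps12 (-0.136) moved little. Those of Rpl38 (-0.096), Rps29 (-0.105), Rpl19 (-0.122), Rpl37a (-0.133), Rpl21 (-0.125) and Rps4x (-0.096) were smaller in size than with it. Without CCL26 replicate 3 the counts were 18 and 11. For the fits without a further library no share of all genes called is given. With all 9 libraries all 75 members were negative at medians of -1.024 and -1.057, and 30 lay wholly below CX3CL1, against 9.76% of all tested genes. EdgeR, DESeq2 and limma-voom then called 0, and the background was 0.0155% lower and 0.395% higher. At an unadjusted p under 0.05 there were 37 members, all lower, against 827 lower and 657 higher of 12915 tested genes.

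Read side by side, the CCL26 medians of about the same size in both subunits were more negative than those of CX3CL1 without replicate 1, but both comparisons use the same BSA libraries. The difference between the chemokines is that of the direct test, which called 9 of 76 members. In median deviation from the BSA mean per member, CX3CL1 replicate 2 stood at -0.030 (large) and -0.043 (small) and CX3CL1 replicate 3 at -0.128 and -0.136. CCL26 replicates 1 to 3 stood at -0.178, -0.216 and -0.197 for the large and at -0.176, -0.212 and -0.167 for the small subunit. BSA replicate 1 stood at -0.034 and -0.051, so CX3CL1 replicate 2 lay within the BSA libraries and CX3CL1 replicate 3 between BSA and CCL26.

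**Figure D4:**
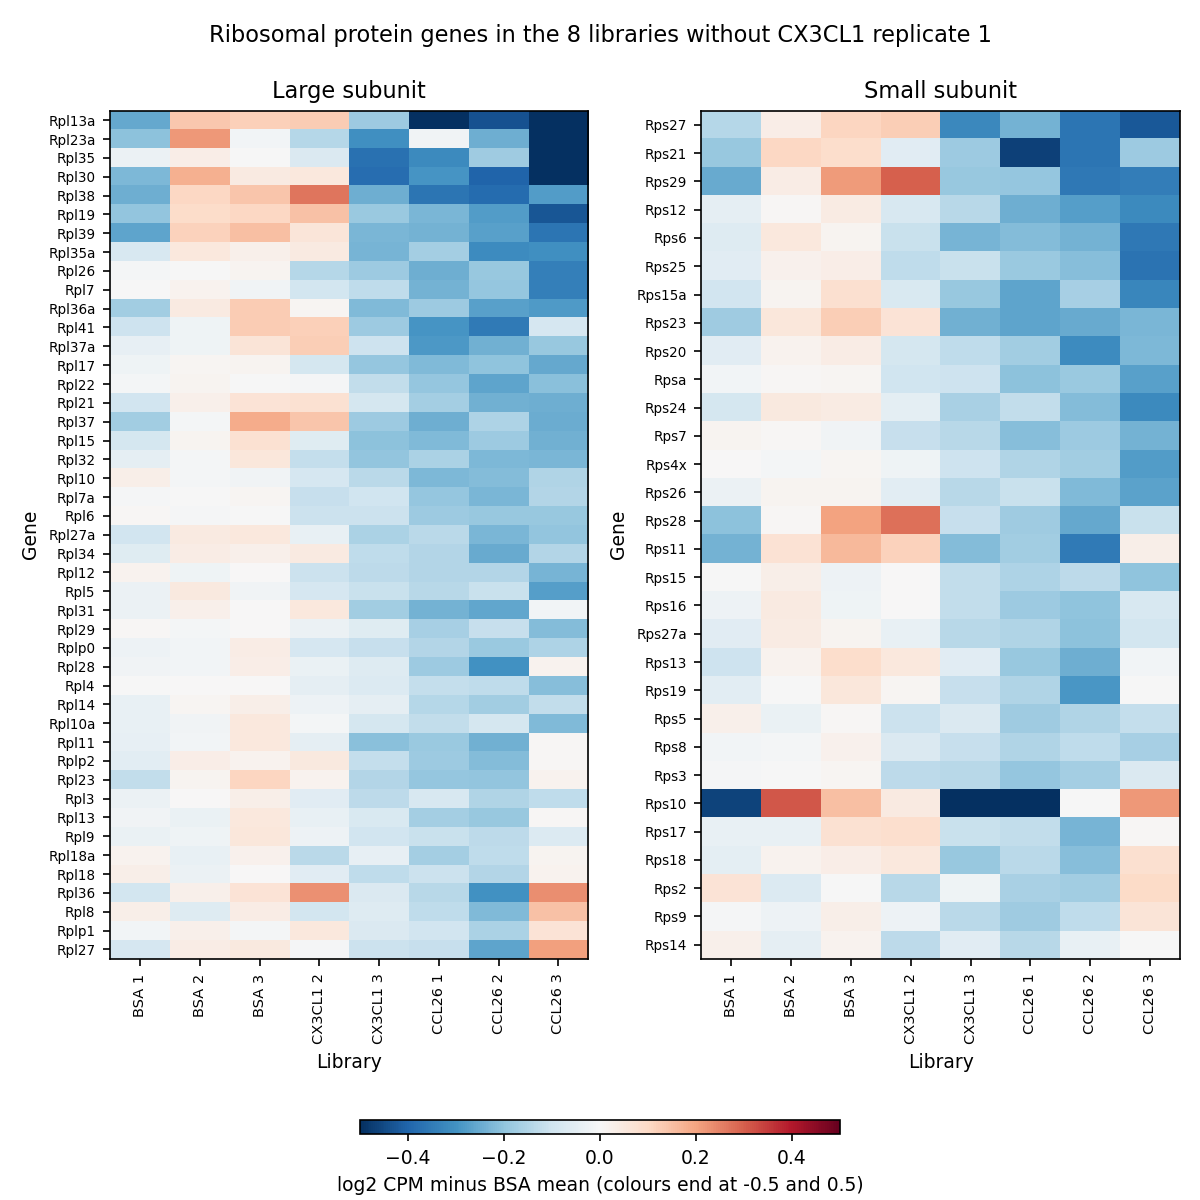
Log2 CPM minus the BSA mean (colour, ending at -0.5 and 0.5) of each member drawn (rows, ordered by fold change of CCL26 over BSA) in the 8 libraries without CX3CL1 replicate 1 (columns). The CCL26 columns are blue for most rows, the CX3CL1 replicate 3 column is paler blue, and a group of rows with Rpl38, Rps28 and Rps29 is red in CX3CL1 replicate 2; Rpl24 is not drawn.

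The members moved together from library to library. Over the 8 libraries the median Pearson r between 2 members was 0.6957, and 2716 of 2850 pairs were above 0, where the median over all tested genes was -0.0002922. After the group means were subtracted the median was 0.3776, against 0.0001928 for all genes. These correlations share the libraries and their scaling. Rpl15 (r 0.952 with the mean of the other members) followed the block most closely. Rpl24 (0.0555), Rps2 (0.168), Rps14 (0.197) and Rpl8 (0.251) followed it least. The non-member genes with the profile most like the members' mean over the 8 libraries were Gm45855 (r 0.9787), Ftl1, the ferritin light chain (r 0.9783), and Dynll1, a dynein light chain (r 0.9686).

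Of 3 ribosomal proteins whose symbols fall outside the naming pattern, Rack1 (log2 fold change -0.177, SE 0.0308) and Rps3a1 (-0.18, SE 0.0338) were lower with CCL26 in the 8 libraries. Rack1 encodes a signalling scaffold on the small subunit. Rps3a1 was not called with the length trend removed (-0.101, edgeR adjusted p = 0.0548). Fau, whose product is made fused to a ubiquitin-like sequence, was at -0.068 (SE 0.056) and did not pass. It was called lower with quality weights (-0.124, limma-voom adjusted p = 0.0468) and without CCL26 replicate 3 (-0.172, edgeR adjusted p = 0.000262). Of 7 tested paralogs, which replace or resemble a member, Rps27l was called (-0.231, SE 0.0735). Its call was lost without BSA replicate 3 (-0.117, edgeR adjusted p = 0.3), without CCL26 replicate 1 or 2, with total counts (-0.177) and with the length trend removed (-0.14). Rpl7l1 was called higher with total counts (0.212, edgeR adjusted p = 0.0116) and with a filter of 5 CPM in 3 libraries (0.159, edgeR adjusted p = 0.0452). With the 3 genes outside the pattern added, the share of counts was 3.94% in BSA and 3.643% in CCL26.

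Other genes of the translation machinery moved with the members or apart from them, by list. Of 16 further genes known for a 5′ TOP start, 14 (87.5%) were lower with CCL26 and none was higher (8 libraries, edgeR, median -0.18). Among them were Npm1, a nucleolar chaperone of ribosome assembly (-0.425, SE 0.0442), Eef1a1, the elongation factor that delivers transfer RNA (-0.153, SE 0.0223), and Pabpc1, which binds poly(A) tails (-0.227, SE 0.0339). Of 54 genes with the symbol of a eukaryotic initiation factor (Eif), its kinases or its binding proteins, 13 were lower and 3 higher (median -0.061). That is 24.1% lower and 5.56% higher, against backgrounds of 9.26% and 9.74%. The lists overlap, as Eif4b, Eif3e, Eif3f and Eif3h are also among the 16 TOP genes. The Eif4ebp genes are also listed with the mTOR pathway. Eif2ak2, an interferon-induced kinase that halts initiation, rose (0.574, SE 0.0629), and the cap-binding Eif4e fell (-0.303, SE 0.0473). Of 77 mitochondrial ribosomal proteins, which build the separate ribosome of mitochondria, 4 were lower and none higher, at a median of 0.001 (from -0.027 to 0.055 under other scalings). The 4 (5.19%, against a background of 9.26%) were Mrpl18, Mrps6, Mrpl4 and Mrps21. The calls of Mrpl18, Mrps6 and Mrpl4 were each lost when 1 library was left out (Mrpl18 at -0.335, edgeR adjusted p = 0.112, without BSA replicate 1).

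Genes that build ribosomes had no common direction. Genes that control them were mixed in sign, but more of them were called higher than lower. Of 47 ribosome biogenesis genes 4 were lower, among them Ncl (nucleolin, -0.218, SE 0.0345) and Gnl3 (nucleostemin, -0.332, SE 0.0593), and 6 were higher, among them Mdn1 (0.336, SE 0.0699), an ATPase of large subunit assembly. These are 8.51% lower and 12.8% higher, near the backgrounds of 9.26% and 9.74%. Mdn1 stood at 0.186 (edgeR adjusted p = 0.05) with the length trend removed. Of 17 genes tested from a list of the mTOR pathway, of TOP regulation and of Myc, Mycn and Max, 6 were higher and 1 was lower. That is 35.3% higher and 5.88% lower, against the backgrounds of 9.74% and 9.26%. By sign 9 of the 17 were positive and 8 negative, at a median of 0.017. Myc, a transcription factor that drives ribosome production, rose from 27.3 ± 2.34 to 50.4 ± 4.55 CPM (SD, n = 3 each; log2 fold change 0.887, SE 0.093), and Larp1 rose by 0.261 (SE 0.044). Tsc1 (0.36) and Mtor (0.28) rose as well. With all 9 libraries edgeR called 1 gene over all these lists, Myc, which was higher. Lists were compared by counts and medians only.

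**Figure D5:**
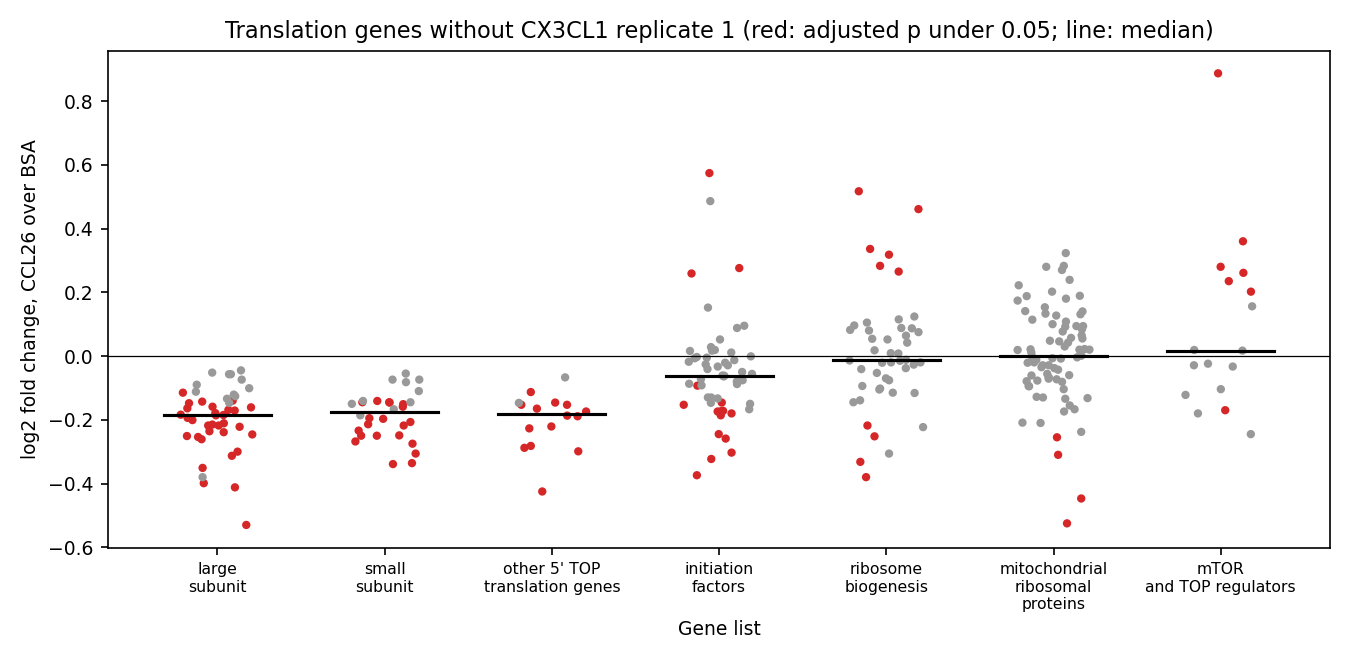
Log2 fold change of CCL26 over BSA in the 8 libraries (y axis) for the genes of each list (x axis), with 1 point per tested gene, red where the adjusted p was under 0.05, and a line at the median. The medians of both subunits and of the other 5′ TOP genes lie near -0.18 and that of the mitochondrial ribosomal proteins at 0.001; Rpl24 is not drawn.

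Markers of cell type moved in the same comparison. Of 8 macrophage markers 6 were lower with CCL26 (8 libraries, median -0.163; 5 lower and 1 higher with total counts alone), and their summed level was 29510 to 30030 CPM in BSA, 23830 to 24370 CPM in CCL26 and 41970 CPM in CX3CL1 replicate 1. Most of that sum was Lyz2, a lysozyme of mature macrophages, which fell by 0.354 on the log2 scale (SE 0.0159); Csf1r did not pass (0.036, SE 0.0276). Of 9 granulocyte markers S100a8 and S100a9 were higher, and the summed level was 64.76 to 70.33 CPM in BSA, 79.38 to 84.31 CPM in CCL26 and 182.6 CPM in CX3CL1 replicate 1. Of 3 B cell markers Cd79b was lower; the sums were 98.35 to 108.1 CPM in BSA and 97.12 to 104.3 CPM in CCL26. The stromal list summed to at most 3.253 CPM and the dendritic list to at most 5.761 CPM in any library, and no gene of either was called. Of 9 proliferation markers 1 was lower and 1 higher. The part of these shifts in the members' values was not tested. Mitochondrially encoded genes took 0.0872% to 0.0898% of counts in BSA and 0.0547% to 0.0626% in CCL26, and the shares of the members without them in the total were 3.707% and 3.425%.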

How the data were processed

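The deposited table, which its name marks as filtered, holds raw read counts of 13593 genes in 9 libraries. Shares of counts are therefore shares of the counts of those genes. STAR, featureCounts and MultiQC, with the builds GRCm38 and mm10, appear in the submitters' processing notes; the strand setting of the counting step is not stated there. Per the labels' protocols, libraries were made with the NEBNext Ultra II kit and sequenced as 150 bp pairs. Columns were matched to libraries by the sample codes in the labels; 1333 of 1343 genes without a symbol took one from GENCODE M21, which also gave coordinates and exon lengths. Genes were filtered with filterByExpr (12915 of 13593 with 9 libraries, 13245 with 8), scaled by TMM, and tested with edgeR 4.0.16 (quasi-likelihood, R 4.3.3, group as the only term, adjusted p under 0.05, Benjamini-Hochberg over all tested genes). Scripts were tested on simulated data. SE is the size of the log2 fold change over the square root of F. Correlations used log2(CPM + 0.5). Alternatives used DESeq2 1.42.0 and limma 3.58.1. Genes named per comparison are the 5 members of each subunit with the smallest p in the 8 libraries, the 3 closest to or above 0, and the 3 highest and lowest per kilobase; other names were chosen after seeing values. A further gene fixed in a list is not reported here. The members and lists were chosen with earlier results of these data known.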

Additional observations from a re-analysis of the deposited data

How the results depend on the processing

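For the counts of members called in this section, the shares of all genes called in each alternative fit are not given. With 8 libraries, CCL26 against BSA kept negative medians and 0 members higher under every alternative. Its medians were -0.214 (large) and -0.206 (small) with upper quartile factors, and -0.13 and -0.122 with total counts, which called 13 small subunit genes. Leaving out 1 library gave 22 to 44 large and 17 to 27 small subunit genes lower, with medians of -0.2 to -0.172 and -0.204 to -0.167. With 9 libraries the medians were -0.209 (large, upper quartile), -0.13 and -0.122 (total counts), -0.205 (small, replicate block) and -0.157 (small, length trend removed). Counts were 29 and 16 with quality weights, 33 and 21 with only the 2 groups, and 0 to 32 and 0 to 20 without 1 library (small subunit median -0.208 to -0.171), where all calls came without CX3CL1 replicate 1.

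For CX3CL1 against BSA with 8 libraries, the counts lower were 3 and 3 with DESeq2, 7 and 4 with quality weights, 9 and 4 with only the 2 groups, and 0 to 9 and 0 to 5 without 1 library, the highest without CCL26 replicate 3. With 9 libraries the medians were 0.426 and 0.416 with the length trend removed. They turned negative with quality weights (-0.065 and -0.081), and without CX3CL1 replicate 1 they were -0.084 and -0.09, the low end of ranges that reached 1.149 and 1.259.

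For CCL26 against CX3CL1 with 8 libraries, the counts lower were 11 large with upper quartile factors, 2 small with total counts, 13 and 7 with quality weights, 3 large with robust dispersion, 3 large with the replicate block, 2 and 1 at a threshold of 0.01, 11 and 9 at 0.1, 2 small with only the 2 groups, and 0 to 18 and 0 to 11 without 1 library (medians -0.135 to -0.045 and -0.154 to -0.042). Medians were -0.119 (small, upper quartile), -0.067 and -0.073 (total counts) and -0.073 (small, length trend removed). With 9 libraries they were -1.046 (large, DESeq2 size factors), -1.109 and -1.142 (upper quartile), -0.836 and -0.86 (total counts, which moved the median of all genes from 0.018 to 0.123), -0.993 (large, no filter), -1.068 and -1.123 (5 CPM in 3 libraries), -1.049 (large, DESeq2), -0.715 and -0.749 (limma-voom), -0.1 and -0.117 (quality weights, 2 large genes called), -0.82 and -0.841 (replicate block) and -0.609 and -0.571 (length trend removed), and without 1 library -1.316 to -0.092 and -1.382 to -0.099, with 0 to 5 and 0 to 4 genes called. The cause was not tested.

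The share of counts with the ribosomal protein genes outside the pattern was 3.94% in BSA and 3.643% in CCL26. Deviations of same-numbered libraries from their group means correlated at -0.107 to 0.08, and those of libraries with different numbers at -0.116 to 0.122. The group mean of CX3CL1 includes its replicate 1, which weighs on the values of that group. Between BSA and CCL26 the same-numbered values were 0.007, 0.039 and 0.012, and the others ran from -0.032 to 0.018. These small values do not decide whether replicate numbers pair the libraries. The block called 33 large and 20 small subunit genes lower for CCL26 against BSA with 8 libraries, so it changed no call there by over 1.5 times. Signs turned for Rpl27 (0.01 with total counts, -0.186 to 0.054 without 1 library), Rpl36 (0.003 with total counts, 0.075 with the length trend removed, -0.215 to 0.06 without 1 library), Rplp1 (0.059, length trend removed) and Fau (0.009, length trend removed; -0.172 to -0.003 without 1 library). At these depths Rpl24 and Rps10 had too few counts to place.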
